A study of Homo sapiens with 48 samples.

Results

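The loss of a drug response between 6 h and 18 h was followed in BEAS-2B cells, an immortalised human bronchial epithelial line, by setting the response at 18 h against the response at 6 h. The groups, with 4 arrays each, were Ind/GSK at 18 h, GS-5759 at 18 h, vehicle at 18 h, Ind/GSK at 6 h, GS-5759 at 6 h and vehicle at 6 h. These are 24 of the 48 arrays in the series, chosen by the drug and the time in their titles; the other 24 hold the same treatments at 1 h and 2 h. Ind/GSK is indacaterol, a long-acting bronchodilator of the β2 agonist class, given with GSK 256066, an inhibitor of phosphodiesterase 4 (PDE4), both at 10 nM. GS-5759 is a single bifunctional molecule that is both a β2 agonist and a PDE4 inhibitor, given at 10 nM. All cultures were confluent, and all had 3 days in keratinocyte serum-free medium with epidermal growth factor and pituitary extract, then 24 h in that medium, before treatment. The labels do not say whether the 4 arrays of a group came from separate cultures, so p-values measure the spread between these arrays, which may be technical.

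Drugs of the β2 agonist class act through Gs and adenylyl cyclase, which makes cyclic AMP (cAMP), and PDE4 breaks cAMP down. Protein kinase A, activated by cAMP, phosphorylates CREB, which binds cAMP response elements in promoters and induces genes such as the NR4A nuclear receptors. The pathway induces its own brakes, among them PDE4 isoforms and the salt-inducible kinases that hold back CREB coactivators. In airway epithelium cAMP-raising drugs are known for inducing genes with anti-inflammatory and bronchoprotective roles, several of which glucocorticoids induce too.

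Signals are PLIER intensities on a linear scale. A response is the mean log2(signal + 16) of the 8 drug-treated arrays minus that of the 4 vehicle arrays at the same time, and the change is the response at 18 h minus the response at 6 h. Values after ± are SEs of the fit, and a value is called where limma's adjusted p was under 0.05 over all 14409 genes tested. Replicate 3 stood apart: the keratin KRT5 read 33100 to 36300 on its 6 arrays and 108 to 225 on the other 18, and KRT14 233000 to 441000 against 17.2 to 31.9. Of 5 basal and squamous markers with a probe set, only these 2 passed the low-signal filter. KRT13, IVL and SPRR1B lay below it, and KRT14 was under the filter level of 75.42 on those 18 arrays. The other epithelial markers KRT8, KRT18, EPCAM and CDH1 all passed the low-signal filter, as did all 6 fibroblast markers, whose summed signal was 7346 to 11021 with drug and 9651 to 11265 with vehicle at 18 h. Of markers of other cell types, 1 of 5 ciliated (DNAI1), 1 of 5 club and goblet (MUC5AC), 3 of 4 leukocyte (CD3E, CD14 and LYZ) and 2 of 4 endothelial genes (PECAM1 and VWF) passed it. Below it lay, among others, FOXJ1, SCGB1A1, PTPRC and CDH5, and the part of other cells in the results was not tested. Arrays with the same replicate number deviated together from their group means in all 60 such pairs, so a fit with the number as a block is given beside the results it alters.

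Most of the transcriptional response seen at 6 h was smaller at 18 h. Limma called 8 genes (0.0555% of those tested) in the response at 18 h, 4 risen and 4 fallen, against 565 (3.92%) at 6 h, 243 risen (1.69%) and 322 fallen (2.23%). With the replicate block the counts were 223 (1.55%) at 18 h and 2644 (18.3%) at 6 h. Of the 243 genes risen at 6 h, 241 had a smaller value at 18 h and 1 was still called as risen. Their median response was 0.049 at 18 h, against 0.45 at 6 h. Of the 322 fallen genes, 321 had a smaller fall at 18 h and none was still called, with a median response of -0.018 at 18 h, against -0.251 at 6 h. With the block, 42 of 1006 genes risen at 6 h and 61 of 1638 fallen were still called in the same direction at 18 h. The 6 h values chose these genes, so their counts and medians are descriptions, and the change itself was tested over all genes.

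The change was called in 52 genes (0.361%): 27 below 0 (0.187%), 9 of them by at least 2-fold, and 25 above 0 (0.174%), none by 2-fold. The unadjusted p was under 0.05 in 1149 genes. The replicate block called 832 genes (5.77%), 411 below 0 and 421 above, including all 52. All 27 changes below 0 were rises that were smaller or gone at 18 h, called lost rises here, and all 25 above 0 were lost falls. A response counts as lost where its size at 18 h was under its size at 6 h, whatever its sign, and all 52 met this. The sign at 18 h was opposite to that at 6 h in 14 lost rises and 21 lost falls, none called at 18 h, LINC03014 (-0.32, against 0.77 at 6 h) and STIP1 (0.18, against -0.18) among them. Of the lost rises, 27 were called at 6 h and none at 18 h (CRISPLD2, LINC00473 and PDE7B were with the block), with a median response of -0.002 at 18 h, against 0.737 at 6 h. Of the lost falls, 24 were called at 6 h and none at 18 h, with medians of 0.048 at 18 h and -0.314 at 6 h. In each replicate number taken alone all 27 changes lay below 0 and all 25 above 0, where 15.3% and 20.4% of all genes tested were below or above 0 in all 4 numbers. The same arrays chose the genes, so this is a description. The split rested on scaling: 49 below 0 and 91 above after each array was centred on its 75th percentile, 51 and 76 after quantile normalization. Calls fell to 7 below 0 and 5 above without replicate 1, 10 and 3 without replicate 2, 13 and 10 without replicate 3, and 7 and 5 without replicate 4. Counts fell to 27 without vehicle 18 h replicate 1, 28 without vehicle 18 h replicate 2 and 29 without vehicle 6 h replicate 2. These leave-out fits, and those given for single genes below, had no block, while the block fit on all arrays called all 52.

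**Figure D1:**
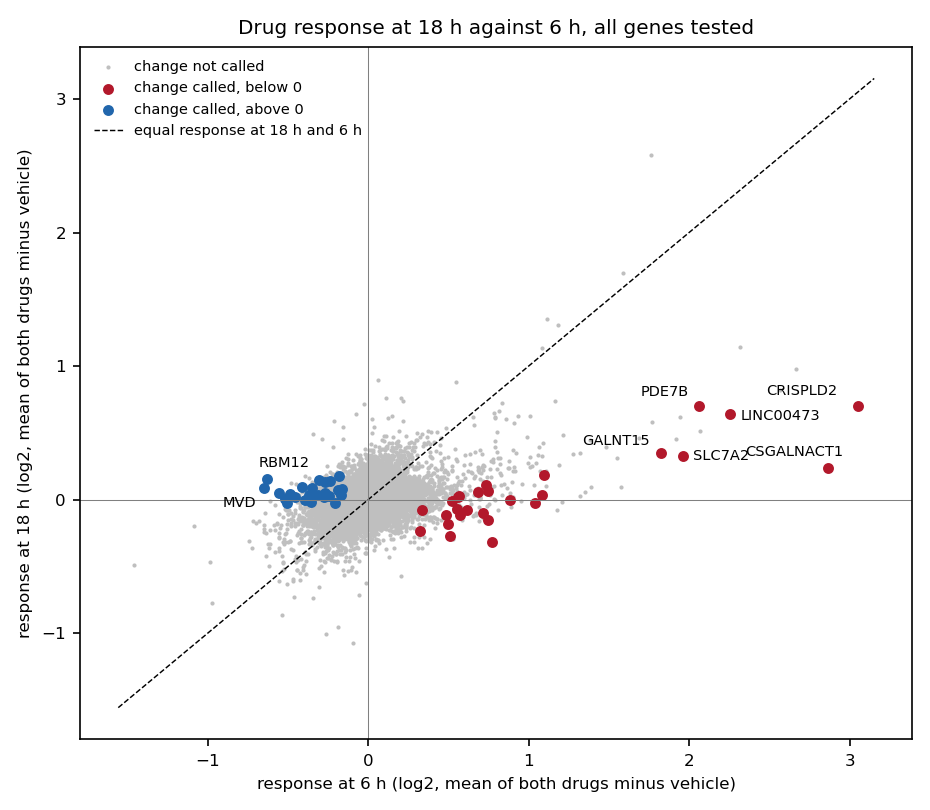
Response at 18 h (vertical axis) against response at 6 h (horizontal axis), both log2 of drug over vehicle, for 14409 genes; red and blue points are the 27 and 25 genes called in the change, grey points the rest, and the dashed line marks equal responses. The called genes lie along the horizontal zero line, away from the dashed line: red points reach 3.05 at 6 h and no more than 0.70 at 18 h.

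CSGALNACT1 had the largest change. It encodes an enzyme that starts chondroitin sulfate chains on proteoglycans. At 18 h its signals were 109, 178, 145 and 169 with Ind/GSK and 175, 149, 140 and 144 with GS-5759, against 129, 89.1, 121 and 171 with vehicle. At 6 h they were 1615, 684, 1243 and 909 with Ind/GSK and 1542, 795, 1072 and 895 with GS-5759, against 152, 116, 98.8 and 164 with vehicle. The drug-treated arrays at 6 h thus lay far above every other array, and at 18 h they overlapped vehicle. The response was 0.24 ± 0.19 at 18 h, against 2.87 ± 0.19 (7.29-fold) at 6 h, and the change was -2.63 ± 0.27 (adjusted p 1.16e-07). A second, dimmer probe set of the gene gave a change of 0.07, so the loss is that of the transcripts read by the brighter one. The change stayed called in all 24 fits that left out 1 array and all 4 that left out a replicate number.

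CRISPLD2, which encodes a secreted protein induced by glucocorticoids and linked to lower cytokine release, followed. Its signals at 18 h were 946, 381, 349 and 329 with Ind/GSK and 851, 327, 274 and 285 with GS-5759, against 598, 177, 189 and 193 with vehicle. At 6 h they were 4280, 2254, 1799 and 2000 with Ind/GSK and 4053, 2540, 1660 and 2208 with GS-5759, against 433, 258, 223 and 249 with vehicle. Replicate 1 was the highest array of every one of these groups, and within each replicate number the drug-treated arrays lay above their vehicle at 18 h as well. The response was 0.70 ± 0.34 at 18 h (adjusted p 0.806, and 0.00401 with the replicate block), against 3.05 ± 0.34 at 6 h, and the change was -2.35 ± 0.48 (adjusted p 0.0116, and 4.9e-10 with the replicate block). The call was lost without vehicle 18 h replicate 1 (-1.95, adjusted p 0.0715) and without replicate number 2, 3 or 4 (adjusted p up to 0.138). A dim second probe set gave 0.10.

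SLC7A2, a transporter of arginine and lysine, had signals of 950, 726, 982 and 698 with Ind/GSK and 892, 653, 648 and 649 with GS-5759 at 18 h, against 834, 598, 469 and 576 with vehicle. At 6 h these were 2815, 1784, 2847 and 2350 with Ind/GSK and 2948, 1906, 2096 and 2460 with GS-5759, against 706, 508, 550 and 634 with vehicle. Drug and vehicle did not overlap at 6 h and did at 18 h. The change was -1.64 ± 0.22 (adjusted p 2.6e-05), and it was called in all 28 leave-out fits.

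**Figure D2:**
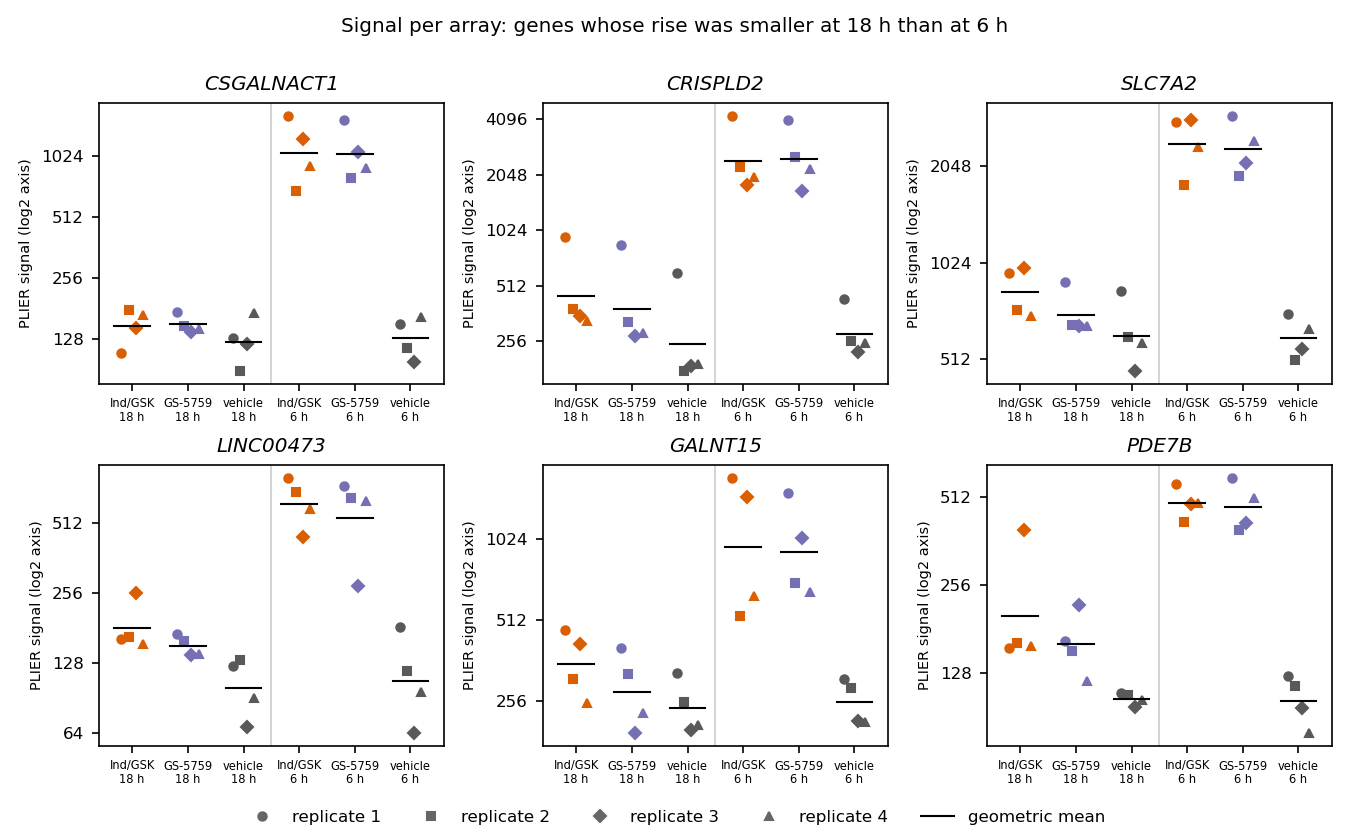
PLIER signal per array on a log2 axis for the 6 genes with the largest lost rises; symbols mark the replicate number, colours the treatment, black lines the geometric mean of 4 arrays, with 18 h left of 6 h and drugs left of vehicle. Drug-treated arrays stand clear of vehicle at 6 h in all 6 genes, and at 18 h only in LINC00473 and PDE7B.

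LINC00473 and PDE7B were the lost rises in which drug-treated arrays still lay above every vehicle array at 18 h. LINC00473 is a non-coding RNA known as a CREB target. At 18 h it read 162, 165, 255 and 154 with Ind/GSK and 170, 158, 138 and 139 with GS-5759, against 123, 131, 67.7 and 90.0 with vehicle. The 6 h signals were 799, 692, 446 and 586 with Ind/GSK and 735, 655, 273 and 635 with GS-5759, against 181, 118, 63.7 and 96.0 with vehicle. The response was 0.64 ± 0.26 at 18 h, with an adjusted p of 0.647, and 0.0286 with the block, against 2.26 ± 0.26 at 6 h. The change of -1.62 ± 0.37 (adjusted p 0.0337, and 6.92e-06 with the block) lost its call in 13 of 24 fits without 1 array, with values of -1.66 to -1.41 and adjusted p up to 0.114, and in those without replicate number 1, 2 or 4 (adjusted p up to 0.374).

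PDE7B hydrolyses cAMP and belongs to a family that PDE4 inhibitors spare. At 18 h its signals were 156, 162, 395 and 158 with Ind/GSK and 164, 152, 217 and 120 with GS-5759, against 109, 107, 97.6 and 103 with vehicle. At 6 h they were 565, 420, 484 and 488 with Ind/GSK and 595, 393, 417 and 507 with GS-5759, against 125, 115, 96.8 and 79.4 with vehicle. The highest arrays at 18 h were those of replicate 3 in both drug groups. The response was 0.70 ± 0.18 at 18 h (adjusted p 0.248, and 0.0295 with the block), against 2.06 ± 0.18 (4.17-fold) at 6 h. The change was -1.36 ± 0.26 (adjusted p 0.00579, and 5.17e-04 with the block). Without replicate 3 the change was -1.61 (adjusted p 7.84e-04), and it lost its call without replicate number 1, 2 or 4 (adjusted p up to 0.227).

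GALNT15, an enzyme that starts mucin-type O-glycans, read 470, 308, 415 and 252 with Ind/GSK and 401, 322, 194 and 231 with GS-5759 at 18 h, against 324, 254, 199 and 208 with vehicle. Signals at 6 h were 1723, 529, 1459 and 629 with Ind/GSK and 1507, 699, 1028 and 649 with GS-5759, against 309, 286, 216 and 214 with vehicle. Replicates 1 and 3 had the larger rises at 6 h, and their changes were -1.92 and -1.93, against -0.76 and -1.31 in replicates 2 and 4. The change was -1.48 ± 0.33 (adjusted p 0.0254, and 2.44e-04 with the block), and its other probe sets gave -1.24 and -1.09. The call was lost without vehicle 18 h replicate 1 (-1.35) or 2 (-1.46), vehicle 6 h replicate 3 (-1.41) or 4 (-1.40), and without replicate number 1, 3 or 4 (adjusted p up to 0.167).

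Promoter windows from RefSeq (GRCh38.p14, 250 bases before to 50 after the start) were found for 10 of the 12 largest lost rises and searched on both strands for the cAMP response element TGACGTCA and its core TGACG, which lies within it. The full element was in 1 of the 10, PDE7B, and the core in 3, PDE7B, LINC00473 and GALNT15. A gene counts where any of its windows matches. Of all 27305 genes with a window, 2.25% hold the full element and 28.4% the core, so the core was about as common as over all genes. The 250 bases before the start of those 3 genes are shown, because they carry the motif of the pathway the drugs act on, with each core on either strand in capitals. PDE7B at chr6:135851451-135851700 (plus strand) has the full palindrome from base -155. LINC00473 at chr6:165988040-165988289 (minus strand) has cores from bases -167 and -92, and GALNT15 at chr3:16174430-16174679 (plus strand) has 1 from base -96. Of the 8 largest lost falls 7 had a window, with the full element in 2 and the core in 5. Over all lost responses with a window, the core was in 8 of 22 lost rises and 14 of 21 lost falls. These are matches of letters, and no binding was measured.
PDE7B: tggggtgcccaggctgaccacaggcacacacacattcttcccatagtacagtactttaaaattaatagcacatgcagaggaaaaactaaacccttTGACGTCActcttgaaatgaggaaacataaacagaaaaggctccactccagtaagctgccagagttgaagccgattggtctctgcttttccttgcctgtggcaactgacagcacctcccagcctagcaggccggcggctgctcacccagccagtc
LINC00473: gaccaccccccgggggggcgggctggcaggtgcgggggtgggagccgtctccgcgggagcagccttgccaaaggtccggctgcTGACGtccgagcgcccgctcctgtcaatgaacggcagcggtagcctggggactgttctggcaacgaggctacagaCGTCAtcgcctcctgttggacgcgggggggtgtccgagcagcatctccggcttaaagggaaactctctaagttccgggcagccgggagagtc
GALNT15: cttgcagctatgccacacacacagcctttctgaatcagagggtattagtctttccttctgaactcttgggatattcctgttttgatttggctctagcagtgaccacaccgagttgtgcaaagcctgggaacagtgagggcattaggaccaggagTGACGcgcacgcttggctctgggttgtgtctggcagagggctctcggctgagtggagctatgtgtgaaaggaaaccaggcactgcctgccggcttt

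The next lost rises were smaller at 6 h and lay close to 0 at 18 h. IGF1R, the receptor of insulin-like growth factor 1, read a median of 996 with drug (852 to 1100) at 18 h, against 892 to 1100 with vehicle, and a median of 1385 (1234 to 2539) at 6 h, against 587 to 867 with vehicle. Its change was -1.07 ± 0.21 (adjusted p 0.00871), with -1.10 and -1.13 in 2 further bright probe sets. CSNK1E, the kinase CK1ε of Wnt and clock signalling, read a median of 577 with drug (491 to 666) at 18 h, against 471 to 606 with vehicle, and 1814 (1387 to 2150) at 6 h, against 700 to 932 with vehicle. Its change was -1.05 ± 0.20 (adjusted p 0.00758). ITPR1, a calcium release channel of the endoplasmic reticulum, read a median of 339 (319 to 431) with drug at 18 h, against 338 to 358 with vehicle, and 564 (482 to 774) at 6 h, against 222 to 370 with vehicle. Its change was -0.89 ± 0.16 (adjusted p 0.00246). KLHL29 (-0.90 ± 0.13, adjusted p 1.74e-04), TANC2 (-0.91 ± 0.22, adjusted p 0.0426) and the non-coding LINC03014 (-1.09 ± 0.24, adjusted p 0.0254) completed the 12. Without the block, the TANC2 call was the least stable. Of 24 fits without 1 array 17 lost it (-0.97 to -0.77, adjusted p up to 0.127), as did all 4 without a replicate number. LINC03014 lost its call in 5 such fits, all without a vehicle array (-1.09 to -0.98, adjusted p up to 0.0931), and without replicate number 1, 2 or 4. IGF1R lost it without replicate number 1 or 4, CSNK1E without 1, 2 or 3, and ITPR1 without 1. With the block on all arrays, limma gave adjusted p of 2.89e-07 for TANC2 and 3.39e-07 for LINC03014. For IGF1R, CSNK1E and ITPR1 it gave 4.56e-06, 1.39e-08 and 2.84e-05.

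The other 15 lost rises had changes of -0.82 to -0.41. SIRPA, an inhibitory surface receptor that binds CD47, read 402, 384, 339 and 384 with Ind/GSK and 410, 394, 401 and 359 with GS-5759 at 18 h, against 400, 433, 444 and 393 with vehicle. At 6 h it read 670, 594, 568 and 628 with Ind/GSK and 745, 658, 621 and 591 with GS-5759, against 438, 363, 433 and 450 with vehicle, and its change was -0.69 ± 0.10 (adjusted p 5.21e-05). CEMIP2, a surface protein linked to hyaluronan breakdown (-0.82), SLIT2, a secreted guidance ligand (-0.79), DUSP4, a MAP kinase phosphatase (-0.69) and NPC1, the lysosomal cholesterol exporter (-0.68) also changed. So did the carnitine transporter SLC22A5 (-0.62), the mitochondrial coenzyme Q kinase COQ8A (-0.60) and the transcription cofactor gene TAF4B (-0.68). HERC4, TRABD2A, FLRT2, HBP1, YPEL3, GLRX and SIX5 were the remaining ones.

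Lost falls were smaller than the largest lost rises. RBM12, an RNA-binding protein, had a change of 0.78 ± 0.15 (adjusted p 0.00775), with 0.68 in its other probe set. At 18 h it read 2298, 2928, 2952 and 3211 with Ind/GSK and 2638, 2939, 3326 and 3113 with GS-5759, against 2283, 2308, 3015 and 2934 with vehicle. The 6 h signals were 1604, 1970, 1424 and 2363 with Ind/GSK and 2159, 2368, 1885 and 2355 with GS-5759, against 3233, 3016, 2620 and 3520 with vehicle. All 8 drug-treated arrays at 6 h lay below all 4 vehicle arrays, and at 18 h the groups overlapped. The call was lost without replicate number 1 or 2 (adjusted p up to 0.111).

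MVD and MVK act in the mevalonate pathway that feeds cholesterol synthesis. MVK, mevalonate kinase, read 2213, 2219, 2035 and 2328 with Ind/GSK and 2186, 2161, 2243 and 2213 with GS-5759 at 18 h, against 2153, 2079, 2223 and 2043 with vehicle. Signals at 6 h were 1438, 1464, 1513 and 1470 with Ind/GSK and 1564, 1491, 1761 and 1359 with GS-5759, against 2080, 2131, 2511 and 2156 with vehicle. Vehicle was thus alike at both times, and drug-treated arrays lay below it at 6 h only. The change was 0.60 ± 0.10 (adjusted p 5.28e-04), it was called in all 28 leave-out fits, and 2 further bright probe sets gave 0.87 and 1.03.

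MVD, mevalonate diphosphate decarboxylase, read 2192, 2184, 1386 and 2277 with Ind/GSK and 2247, 2062, 1417 and 2094 with GS-5759 at 18 h, against 1960, 2072, 1515 and 1852 with vehicle. At 6 h it read 1098, 1037, 922 and 976 with Ind/GSK and 1149, 1040, 1199 and 1048 with GS-5759, against 1727, 1487, 1750 and 1693 with vehicle. Its change was 0.73 ± 0.16 (adjusted p 0.022). Replicate 3 was the lowest of its group in all 3 groups at 18 h. The call was lost without vehicle 6 h replicate 1 (0.71), 3 (0.71) or 4 (0.72), vehicle 18 h replicate 3 (0.64), and replicate number 1, 2 or 4 (adjusted p up to 0.374), and was kept without number 3 (0.77).

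MMAB encodes an enzyme of vitamin B12 activation, and it is the head-to-head neighbour of MVK. Its signal had a median of 2551 with drug (2285 to 2705) at 18 h, against 2333 to 2639 with vehicle, and 1746 (1524 to 1836) at 6 h, against 2228 to 2581 with vehicle. The change was 0.47 ± 0.09 (adjusted p 0.00566), its dimmer probe sets gave 0.04 and 0.14, and the call was lost without replicate number 2 or 4. The RefSeq promoter windows of MVK and MMAB share 211 of 300 bases. The 250 bases before MVK, at chr12:109573544-109573793 (plus strand), are shown because this stretch lies between both genes, and capitals mark the sterol regulatory element core TCACNCCA. It was searched on both strands after the values were seen. Of all genes with a window 4.8% hold it. Of the 8 largest lost falls 7 had a window, and 2 held it, MVK and MMAB, which share this 1 site.
MVK: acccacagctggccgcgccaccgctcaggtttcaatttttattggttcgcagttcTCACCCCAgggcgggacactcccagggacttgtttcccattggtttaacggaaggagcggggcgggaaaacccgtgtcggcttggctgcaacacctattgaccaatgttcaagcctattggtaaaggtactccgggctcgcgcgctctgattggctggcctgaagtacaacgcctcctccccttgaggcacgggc

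**Figure D3:**
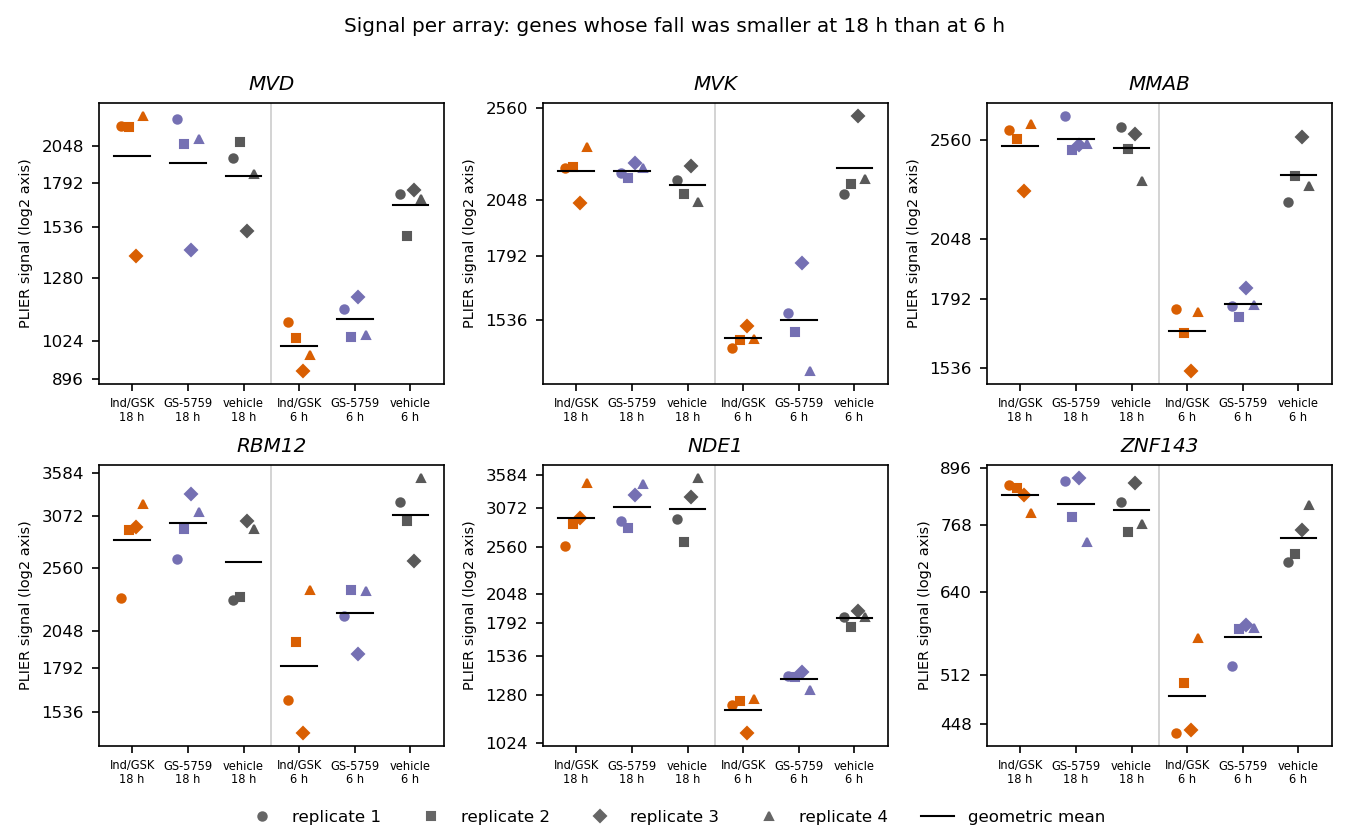
PLIER signal per array on a log2 axis for 6 of the 8 largest lost falls; symbols mark the replicate number, colours the treatment, black lines the geometric mean of 4 arrays, with 18 h left of 6 h and drugs left of vehicle. Drug-treated arrays lie below vehicle at 6 h in all 6 and among vehicle at 18 h, and NDE1 is higher at 18 h than at 6 h in vehicle too.

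The other large lost falls were ZNF143, a transcription factor gene (0.53 ± 0.09, adjusted p 0.00162), FBXO16, an F-box gene (0.53 ± 0.12, adjusted p 0.0281), SLC2A6, a glucose transporter gene (0.50 ± 0.11, adjusted p 0.022) and NDE1, needed for the mitotic spindle (0.49 ± 0.11, adjusted p 0.0258). The ZNF143 call held in all 28 leave-out fits. FBXO16 lost its call in 7 of 24 fits without 1 array (0.42 to 0.53), NDE1 in 5, all without a vehicle array (0.41 to 0.48), and SLC2A6 without vehicle 6 h replicate 2, vehicle 18 h replicate 2 or vehicle 18 h replicate 4 (0.48 to 0.50), each also without any of the 4 replicate numbers. NDE1 was called on 1 probe set of 5; the other 4 gave -0.03 to 0.17. Among the remaining 17 lost falls, at 0.18 to 0.45, were the cell cycle genes CDKN3 (0.40) and HUS1 (0.40), the RNA-binding ELAVL1 (0.18), the import factor KPNB1 (0.24), the amino acid sensing GTPase RRAGC (0.34), the co-chaperone STIP1 (0.36) and PCYT2 (0.39) of phospholipid synthesis. Dimmer ELAVL1 probe sets gave changes of 0.10, -0.24 and -0.27, so its direction differed between probe sets. STIP1 was the lost fall that was not called at 6 h (-0.18, adjusted p 0.0619, and 0.0105 with the block), and its 18 h value was 0.18.

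Between 18 h and 6 h, 4085 genes (28.4%, or 46.2% with the block) were called in drug-treated arrays and 1663 (11.5%, or 29.1%) in vehicle arrays. Of the 27 lost rises, 26 were called as lower in drug-treated arrays at 18 h than at 6 h (8.82% of genes tested), with a median difference of -0.711. In vehicle arrays 3 were called as lower (3.57%), 2 as higher (7.97%) and 22 neither way, with a median of -0.009. Of the 25 lost falls, 23 were called as higher in drug-treated arrays at 18 h (19.5%), with a median of 0.43. In vehicle arrays 5 were called as higher, 2 as lower and 18 neither way, with a median of -0.006. The exceptions were KPNB1, at 0.08 (adjusted p 0.0602), and SLC2A6, whose signal differed by -0.07 ± 0.06 between times in drug-treated arrays and by -0.57 ± 0.09 in vehicle arrays. HBP1 was the lost rise not called as lower in drug-treated arrays, at -0.14, where vehicle differed by 0.40. The groups' arrays did not overlap at 18 h in 2 of the 27 lost rises (drug above vehicle in 0.68% of genes tested), against 26 at 6 h (1.61%). For the 25 lost falls the counts were 0 at 18 h with drug below vehicle (0.333%) and 18 at 6 h (2.23%), and in STIP1 the drug-treated arrays lay above vehicle at 18 h. These differences are parts of the change that chose the genes, on the same arrays. The counts beside the shares over all genes are therefore descriptions, not tests.

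The 1 h and 2 h arrays show when the lost responses had begun. LINC00473 had a response of 1.59 at 1 h, 3.41 at 2 h, 2.26 at 6 h and 0.64 at 18 h, and CRISPLD2 0.38, 2.96, 3.05 and 0.70. CSGALNACT1 and PDE7B were late: 0.39 and -0.16 at 1 h, 0.04 and 0.01 at 2 h, 2.87 and 2.06 at 6 h, then 0.24 and 0.70 at 18 h. Of the 27 lost rises, 2 were called as risen at 1 h (0.389% of all genes) and 14 at 2 h (1.96%), and 21 were larger at 6 h than at 2 h. Of the 25 lost falls, none was called as fallen at 1 h (0.423%) and 3 at 2 h (2.57%), and all 25 were larger at 6 h than at 2 h. For the lost genes the 6 h value entered the contrast that chose them, so these last counts are descriptions.

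**Figure D4:**
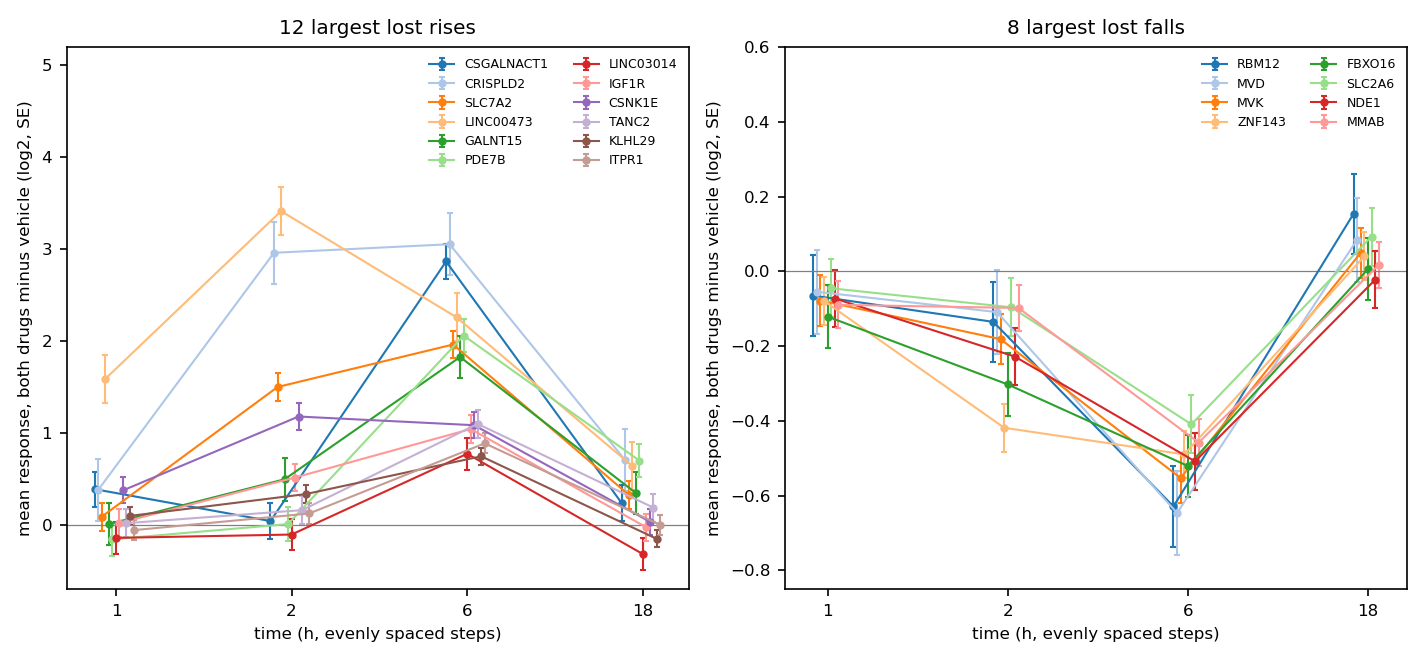
Mean response of both drugs over vehicle (log2, error bars SE of the fit, 8 drug-treated and 4 vehicle arrays a time) at 1, 2, 6 and 18 h, for the 12 largest lost rises (left) and the 8 largest lost falls (right), with time points evenly spaced. LINC00473 is highest at 2 h (3.41), CSGALNACT1 and PDE7B are near 0 at 2 h, and the falls reach -0.65 to -0.41 at 6 h.

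A set of genes was also chosen on the 2 h arrays, which are outside the contrast. At 2 h 282 genes were called as risen (1.96%) and 370 as fallen (2.57%). The risen ones had a median response of 0.598 at 2 h, 0.294 at 6 h and 0.014 at 18 h, and 258 of them (91.5%) had a change below 0, where 44.1% of all genes did. Of the 282, 14 were called as lost (0.187% of all genes were called below 0) and none in the other direction (0.174%). The block called 817 as risen at 2 h (5.67%). Of these, 225 were called below 0 in the change (2.85% of all genes) and 3 above (2.92%). The genes fallen at 2 h had medians of -0.271, -0.085 and -0.032, so most of that fall had gone by 6 h, and 238 (64.3%) had a change above 0, where 55.9% of all genes did. Of the 370, 3 were called as lost falls, where 0.174% of all genes were called above 0.

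The orphan nuclear receptor gene NR4A3 read 78.7, 14.2, 53.1 and 29.8 with Ind/GSK and 71.6, 25.7, 40.01 and 6.48 with GS-5759 at 18 h, against 24.5, 19.5, 10.9 and 1.03 with vehicle. The 6 h signals were 376, 66.9, 164 and 63.7 with Ind/GSK and 326, 65.45, 85.8 and 77.5 with GS-5759, against 9.52, 6.09, 12.02 and 2.06 with vehicle. Most of these lie under the filter level of 75.42, so its folds are poorly bounded. Its change was -1.74 ± 0.70 (adjusted p 0.417, and 0.0103 with the block). NR4A2 had a change of -1.46 ± 0.90 (adjusted p 0.81, and 0.0723 with the block) and NR4A1 -0.44 ± 0.40, neither called in either fit. The NR4A responses were already past their height: at 2 h they were 5.496 for NR4A3, 4.19 for NR4A2 and 1.97 for NR4A1.

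Among cAMP phosphodiesterases, 13 were tested. PDE7B was called in the change, and the block added PDE3A, PDE4D and PDE8B, all below 0, so 4 of 13 against 2.85% of all genes below 0 in that fit. PDE4D, the drug target isoform that cAMP is known to induce, read 572, 422, 1566 and 406 with Ind/GSK and 510, 346, 966 and 395 with GS-5759 at 18 h, against 402, 295, 482 and 340 with vehicle. Signals at 6 h were 1801, 817, 3361 and 818 with Ind/GSK and 1664, 835, 2086 and 918 with GS-5759, against 444, 326, 436 and 347 with vehicle. Replicate 3 kept the highest signal at 18 h. Its change was -1.19 ± 0.54 (adjusted p 0.554), and ± 0.23 with the block (adjusted p 8.94e-04). PDE3A had a change of -1.29 (block adjusted p 1.13e-05) and PDE8B -0.44 (block adjusted p 0.00386). PDE4B (-0.08 ± 0.29) and PDE4A (0.02 ± 0.09) were called in neither fit; PDE4B changed sign with the mean of its probe sets, PDE4A with several left-out arrays.

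SIK1, a salt-inducible kinase, had responses of 0.44 at 18 h and 1.38 at 6 h, and a change of -0.94 ± 0.47 (adjusted p 0.641, and 0.0113 with the block). SIK2 had a change of -0.53 (block adjusted p 0.0395). The other 8 tested genes among CREB factors, coactivators and these kinases were called in neither fit, CREM at -0.10 ± 0.14 among them. Of 18 receptor and adenylyl cyclase genes none was called, and the block called ADCY9 (-0.38) and GNAI3 (0.14). Of 13 protein kinase A, anchor and EPAC genes none was called, and the block called AKAP12 (-0.68) and AKAP1 (-0.28). In the block fit 2.85% of all genes tested were called below 0 and 2.92% above. PER1 had no probe set with exactly 1 symbol and was not analysed here.

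Of 19 known CREB targets tested, CRISPLD2 was called below 0 (0.187% of all genes) and none above, and with the block 9 were below 0 (2.85% of all genes) and none above: NR4A3, SIK1, DUSP1, RGS2, PDE4D, IRS2, JUNB, CITED2 and CRISPLD2. Their median response was 0.13 at 18 h, against 0.505 at 6 h, and the median change was -0.442, against 0.019 over all genes. Of 18 bronchoprotective effectors 1 was called below 0 (0.187% of all genes) and 6 with the block (2.85%). Among these were RGS2, which limits Gq signalling (-0.69, block adjusted p 0.0467), the MAP kinase phosphatase DUSP1 (-0.36, 0.028), the immunoregulatory ligand CD200 (-0.98, 1.05e-05) and the complement inhibitor CD55 (-0.88, 0.00105). The other CD55 probe sets, nearly as bright, gave smaller changes of -0.445 and -0.47, with responses of 0.23 and 0.15 at 18 h. The list's median response was 0.094 at 18 h, against 0.327 at 6 h. CRISPLD2, DUSP1 and RGS2 are in both lists, so the counts are not separate. All gene lists used here were chosen with earlier results of these data known, so their counts are descriptions. CD200 read 1146, 1452, 837 and 1271 with Ind/GSK and 1103, 1268, 651 and 1177 with GS-5759 at 18 h, against 947, 1062, 464 and 1108 with vehicle. At 6 h it read 2613, 2062, 1792 and 2280 with Ind/GSK and 2378, 2144, 1042 and 2363 with GS-5759, against 878, 839, 472 and 1160 with vehicle, and only GS-5759 replicate 3 fell among the vehicle arrays.

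Of 15 glucocorticoid-inducible genes CRISPLD2 was called (0.187% of all genes below 0), and with the block 6 were below 0 (2.85%) and none above, SGK1 (-0.68) and ZBTB16 (-0.50) among them. This list shares CRISPLD2, DUSP1 and CDKN1C with the bronchoprotective effectors. Of 17 MAP kinase feedback inhibitors DUSP4 was called (0.187% of all genes below 0) and the block added DUSP1 (2.85%). The DUSP4 call was lost without vehicle 18 h replicate 1 (-0.69) or 2 (-0.63), vehicle 6 h replicate 3 (-0.58), and any of the 4 replicate numbers. Of 12 inflammatory cytokine and chemokine genes none was called, and the block called IL15 (-0.59), with 2.85% of all genes below 0. IL6 had a change of -0.63 ± 0.59, called in neither fit, with a response of 2.81 at 2 h, 0.87 at 6 h and 0.24 at 18 h.

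Of 10 cholesterol synthesis genes tested, MVK and MVD were called above 0 (0.174% of all genes), and with the block HMGCS1 (0.30) and LSS (0.45) as well, against 2.92% of all genes. Their median response was -0.015 at 18 h, against -0.296 at 6 h, and 4 were called as fallen at 6 h. Of the others, SQLE had -0.11 at 18 h and -0.29 at 6 h, and INSIG1 -0.17 and -0.14. Of 26 G2/M and mitosis genes none was called in the change. The block called 7 above 0 (2.92% of all genes): CCNB2, CDC20, KIF20A, MKI67, PTTG1, DLGAP5 and TPX2, at 0.21 to 0.53. The median response of the 26 was 0.044 at 18 h, against -0.142 at 6 h. Of 25 G1/S and DNA replication genes none was called in either fit, with medians of -0.064 at 18 h and -0.072 at 6 h. A test between these lists was not made.

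Of 19 immediate early genes none was called in the change. The block called JUNB below 0 (2.85% of all genes) and EGR1, a zinc finger transcription factor gene, above (2.92%). EGR1 read 1776, 1692, 1799 and 1565 with Ind/GSK and 1921, 1598, 1907 and 1644 with GS-5759 at 18 h, against 2299, 1778, 2455 and 1565 with vehicle. The 6 h signals were 519, 627, 455 and 641 with Ind/GSK and 832, 693, 811 and 616 with GS-5759, against 1501, 1605, 1364 and 1083 with vehicle. Its fall of -1.09 at 6 h stood at -0.20 at 18 h, a change of 0.89 ± 0.24 (adjusted p 0.0885, and 0.00617 with the block). Of 18 glycan synthesis enzymes CSGALNACT1 was called (0.187% of all genes below 0). The block added GALNT2 (-0.40) and GALNT12 (-0.36), with 2.85% of all genes below 0. Of 21 interferon-stimulated genes, none was called in the change in either fit, and the median response was -0.42 at 18 h, against -0.219 at 6 h. With the block 6 of them were called as fallen at 18 h (0.979% of all genes) and 3 at 6 h (11.4%). Of 10 reference genes none was called in the change in either fit.

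**Figure D5:**
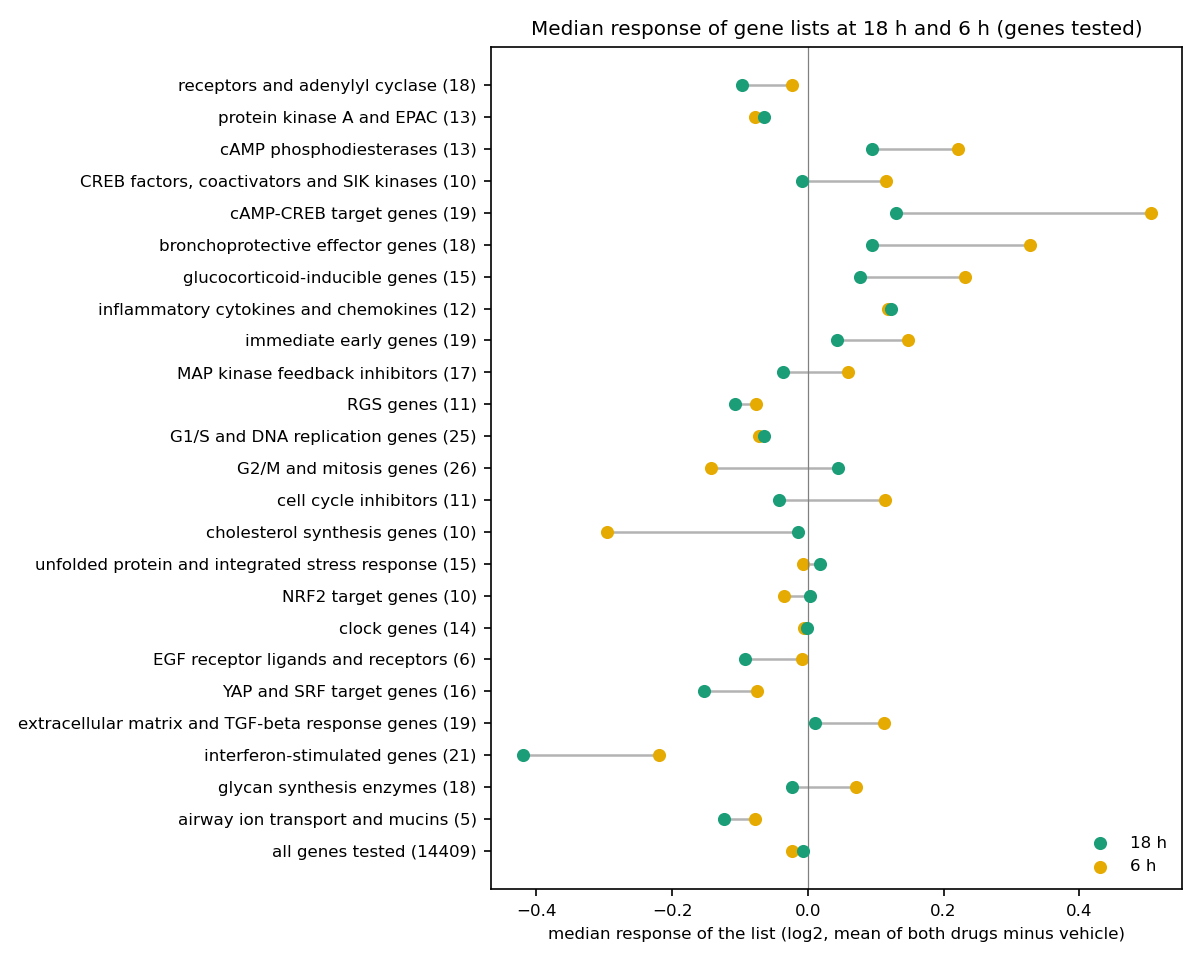
Median response (log2, drug over vehicle, horizontal axis) of each gene list at 18 h (green) and at 6 h (yellow), with the number of genes tested in brackets. CREB targets stand at 0.13 at 18 h and 0.505 at 6 h, cholesterol synthesis genes at -0.015 and -0.296, and interferon-stimulated genes at -0.42 and -0.219.

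The block fit, read by the same rule, added lost rises whose levels differ widely between replicate numbers. PDK4, a kinase that shuts down pyruvate oxidation, read 793, 124, 2945 and 121 with Ind/GSK and 609, 87.8, 1732 and 84.7 with GS-5759 at 18 h, against 384, 46.3, 1026 and 42.0 with vehicle. Signals at 6 h were 3892, 481, 7802 and 378 with Ind/GSK and 2459, 326, 3654 and 309 with GS-5759, against 455, 56.9, 962 and 29.0 with vehicle. Within every replicate number the drug-treated arrays lay above vehicle at both times. Its change was -1.69, with an SE of 0.18 and adjusted p 3.56e-08 in the block fit, against an SE of 1.748 and adjusted p 0.984 without it. LPL, lipoprotein lipase (-1.55), C5AR1, the C5a receptor (-1.48), STEAP4, a metalloreductase (-1.33) and HRK, a pro-apoptotic BCL2 family gene (-1.29) had block adjusted p of 1.66e-06, 7.35e-06, 3.21e-04 and 5.02e-05. NAV3 led the added lost falls, with a response of -0.49 at 18 h, against -1.46 at 6 h (block adjusted p 2.29e-04).

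A few responses persisted. P4HTM, a transmembrane prolyl hydroxylase, was the gene called at both times and not in the change. It read 1730, 1689, 1720 and 1651 with Ind/GSK and 1555, 1531, 1681 and 1481 with GS-5759 at 18 h, against 1369, 1376, 1324 and 1352 with vehicle. At 6 h it read 1483, 1423, 1513 and 1501 with Ind/GSK and 1477, 1539, 1468 and 1595 with GS-5759, against 1255, 1281, 1202 and 1351 with vehicle. The groups did not overlap at either time, and the responses were 0.26 at 18 h and 0.24 at 6 h, a change of 0.03 ± 0.05. With the block, 30 risen and 57 fallen genes were called at both times and not in the change. Largest among the risen were B3GALT4, a galactosyltransferase (1.70 at 18 h, 1.59 at 6 h), SLPI, the secretory leukocyte protease inhibitor (1.31 and 1.19) and TNFAIP2 (1.14 and 1.08). TNFAIP2 read 862, 309, 1647 and 311 with Ind/GSK and 918, 358, 1735 and 323 with GS-5759 at 18 h, against 408, 169, 743 and 113 with vehicle, so drug lay above vehicle in every number. Its dimmer probe set gave smaller responses, 0.34 at 18 h and 0.16 at 6 h. A second B3GALT4 probe set, below the filter level, gave 0.05 and -0.03.

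The 2 drugs did not differ measurably in how much of the response was lost. The change was called in 28 genes (0.194%) with Ind/GSK alone and 8 (0.0555%) with GS-5759 alone, 6 of them with both: CSGALNACT1, SLC7A2, ITPR1, KLHL29, SIRPA and MVK. Both estimates share the vehicle arrays, and with the block the counts were 709 (4.92%) and 234 (1.62%). The difference itself, GS-5759 minus Ind/GSK in the change, was called in no gene by limma, with or without the block, and 52 genes had an unadjusted p under 0.05. Over the 52 genes called in the mean change this difference ran from -0.26 to 0.15, and in 51 of them its 95% interval included 0. ZNF143 was the exception, at 0.40 with GS-5759 and 0.66 with Ind/GSK (interval of the difference -0.47 to -0.05). For CSGALNACT1 the change was -2.60 with GS-5759 and -2.66 with Ind/GSK, with an interval of -0.59 to 0.69. For PDE7B it was -1.49 and -1.23 (-0.85 to 0.35), and for CRISPLD2 -2.48 and -2.22 (-1.37 to 0.86). These intervals do not show that the drugs act alike. A smaller number of calls with 1 drug than with the other is therefore no measured difference between them.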

How the data were processed

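RNA from BEAS-2B cells was hybridised to Affymetrix U133 Plus 2.0 arrays after biotin labelling with a 3' in vitro transcription kit, per the labels' protocols. The authors deposited linear intensities; the submitters' processing notes name PLIER and Affymetrix Expression Console, and versions and any step between arrays are not given in the sources used here. Array medians of log2(intensity + 16) ran from 6.9991 to 7.1731, and the number of arrays, 4 a group, limits the precision.

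Of 54675 probe sets, 62 were controls and 41091 had exactly 1 symbol in the platform annotation (41037 matched a current symbol); 1801 had several and 11721 none, and these were left out. Each of 19775 genes stood for its brightest probe set, and the 14409 above the 40th percentile of mean signal (75.42) were tested. Under R 4.3.3, limma 3.58.1 (eBayes with no trend) fitted 12 group means over all 48 arrays, with 36 residual degrees of freedom and Benjamini-Hochberg adjustment at 0.05. The fit was tested on simulated data with independent spread on each array, so without the deviations that arrays of the same replicate number share. There it recovered 22 of 50 changes of 0.5 in log2 and 48 of 50 changes of 2, with 7 false calls. Python 3.11.15 and matplotlib 3.10.9 drew the figures.

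Replicate numbers come from the titles. Deviations from group means correlated by 0.341 to 0.931 (median 0.746) in the 60 same-numbered pairs and by -0.82 to 0.764 (median -0.205) in 180 others, so a fit with the number as a block is given too. Genes named are the 12 largest lost rises, the 8 largest lost falls, genes called at both times and not in the change, up to 4 called members of each list, and NR4A1, NR4A2, NR4A3, PDE4A, PDE4B, PDE4D, CREM, SIK1, PER1, IL6 and CRISPLD2; 1 further gene of that rule is not reported here. Other called genes and list members named in the text were chosen after their values were seen. The members and lists were chosen with earlier results of these data known. Alternatives were the pseudocount, the filter, centring, quantile normalization, the mean of probe sets, the 24 arrays alone, a trend, the block, and leaving out arrays or replicate numbers. Promoters are those of RefSeq, GRCh38.p14.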

Additional observations from a re-analysis of the deposited data

Results flagged for a closer look

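In the 52 genes called by limma, the mean response differed between 18 h and 6 h by the test of the difference itself. A further 17 signals, each of 1 gene on 1 array, stood apart in 186 groups of 4 arrays over 31 genes, and some arrays recur among them. Chance flags about 1 group in 20. In CRISPLD2, replicate 1 was high at 18 h in all groups, at 946 with Ind/GSK (others 329 to 381), 851 with GS-5759 (274 to 327) and 598 with vehicle (177 to 193). In SLC7A2, GS-5759 18 h replicate 1 was high at 892 (648 to 653). Replicate 3 was apart in LINC00473, low at 273 with GS-5759 at 6 h (635 to 735) and high at 255 with Ind/GSK at 18 h (154 to 165). It was high in PDE7B with Ind/GSK at 18 h, at 395 (156 to 162). It was high in PDE4B with Ind/GSK at 18 h (579, others 224 to 253), GS-5759 at 18 h (508, others 200 to 235) and Ind/GSK at 6 h (672, others 442 to 457). It was low with Ind/GSK in MVD at 18 h (1390, others 2180 to 2280), in TANC2 at 6 h (2460, others 3020 to 3120) and in NDE1 at 6 h (1070, others 1220 to 1250). ITPR1 was low on vehicle 18 h replicate 4, at 338 (356 to 358). At 6 h with GS-5759, ZNF143 was low on replicate 1, at 524 (580 to 587), SLC2A6 low on replicate 4, at 329 (400 to 411), and NR4A3 high on replicate 1, at 326 (65.4 to 85.8). What sets these signals apart was not tested.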

How the results depend on the processing

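The 12 largest lost rises and 8 largest lost falls kept their direction under every alternative that gave a value (PDE7B gave none with the mean of all probe sets), but not always their calls. With the replicate block, which pairs the samples, 411 genes were called below 0 and 421 above (Ind/GSK 709, GS-5759 234), 2644 at 6 h, 223 at 18 h, 6661 between times in drug-treated and 4188 in vehicle arrays, and 225 of the rises and 75 of the falls at 2 h were lost. The block also called NR4A3 (adjusted p 0.0103), SIK1 (0.0113) and PDE4D (8.94e-04). Centring on the 75th percentile gave 49 below 0 and 91 above (Ind/GSK 85, GS-5759 14, lost from 2 h 23 rises and 14 falls). Quantile normalization gave 51 and 76 (Ind/GSK 85, GS-5759 20, lost from 2 h 23 and 10). The mean of all probe sets gave 24 and 16 (Ind/GSK 4, GS-5759 4), no filter 27 and 16, and the 24 arrays alone 13 and 8 (Ind/GSK 6, and 1 gene at 18 h). Leaving out 1 array or replicate number gave 7 to 36 below 0, 3 to 34 above, 5 to 39 with Ind/GSK, 3 to 14 with GS-5759, 0 to 0 between drugs, 237 to 634 at 6 h, 0 to 9 at 18 h, 3089 to 4238 in drug-treated and 774 to 1717 in vehicle arrays, and 3 to 24 rises and 1 to 4 falls from 2 h. PDE4B turned to 0.049 with the mean of probe sets and ran from -0.23 to 0.045 over left-out arrays, PDE4A from -0.026 to 0.07 and P4HTM from -0.003 to 0.053. The mean of probe sets ended the calls of TANC2, KLHL29, ITPR1, ZNF143, NDE1, MMAB and DUSP4. Except where fewer arrays were fitted, the cause was not tested. Signals near the filter level of 75.42, as in NR4A3, limit folds.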

Other observations

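With the replicate block, 4 of the genes called in the change had a response of the same sign that was larger at 18 h. Another 71 had the opposite sign at 18 h, at a size no smaller than at 6 h. Of these 71, 15 were called at 18 h (1.55% of all genes) and 9 at 6 h (18.3%). FIBIN read 1106, 123, 3710 and 120 with Ind/GSK and 872, 169, 4114 and 159 with GS-5759 at 18 h, against 176, 1.02, 801 and 12.3 with vehicle. The 6 h signals were 1519, 199, 3941 and 122 with Ind/GSK and 1711, 132, 4250 and 152 with GS-5759, against 367, 39.6, 1068 and 43.4 with vehicle. Drug lay above vehicle in every replicate number at both times, and the lowest vehicle signals are under the filter level. Its change was 0.82 (limma block adjusted p 0.0396, and 1 without the block). The keratin gene KRT4 fell more at 18 h, with a response of -1.01, against -0.27 at 6 h. Its change was -0.74 (limma block adjusted p 0.00673, and 0.965 without the block), and drug lay below vehicle in every replicate number at both times. NPNT and TNS1 were the others of the 4.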
